A study of Homo sapiens with 12 samples.

Results

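The genes described here encode epithelial cell junctions, the polarity complexes beside them and simple-epithelial keratins. They were taken as a list of 37 symbols, chosen by function and with earlier results of these data known. Of the 37, 34 had a probe set annotated with exactly 1 gene symbol, out of 18404 genes with such a probe set. A gene with several is represented by the brightest of them on average over the arrays. The 3 symbols without such a probe set were CTNND1, OCLN and F11R, and no value is given for them. Of the 34, 32 passed the filter on dim probe sets and were tested among 13199 genes, while CLDN14 and GJA1 did not pass. The tested genes were 5 of 6 adherens junction, 7 of 7 desmosome, 10 of 13 tight junction, 4 of 4 polarity, 1 of 2 gap junction and 5 of 5 keratin genes.

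HepG2C3A is a human hepatocyte-like cell line cloned from a liver tumour line, so every array comes from the same clonal line and no normal hepatocytes were measured. RNA was measured on 12 arrays in 4 groups of 3, namely microsystem treated, microsystem control, Petri treated and Petri control. Cells of all groups were cultured for 96 h, and acetaminophen was present for 72 h of that time in both treated groups, while both control groups received no acetaminophen. The sources used here give neither the dose nor the build of the microsystem, and per the labels' protocols the cells were detached with trypsin before RNA extraction. Nothing in the labels says that the 3 arrays of a group came from separate cultures, so the p-values below speak only to the spread among these samples, and that spread may be technical. Each group enters more than 1 of the comparisons below, which therefore share arrays.

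Adherens junctions join neighbouring cells through cadherins, whose tails bind catenins and thereby actin, whereas desmosomes join cells through desmosomal cadherins that plakoglobin, plakophilins and desmoplakin connect to keratin filaments. Tight junctions seal the space between cells with claudins, occludin and their scaffold proteins, and in hepatocytes they line the bile canaliculus. Gap junctions, built from connexins, let small molecules pass between cells, and hepatocytes depend on the keratin pair KRT8 and KRT18 as their filament network.

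Facts that concern all arrays were as follows. The median deposited log2 value of an array was 5.556 at the lowest and 5.629 at the highest, and r across probe sets within a group ran from 0.991 to 0.995. In a principal component analysis both microsystem arrays numbered 3 stood apart on the third component, which held 6.77% of the variance, at scores of -17.2 for the control and -13.9 for the treated array. Where a difference printed below crosses the threshold when those 2 arrays are left out, both values are given. Of 8 hepatocyte marker genes, 8 lay above the 40th percentile of every array, among them albumin (ALB). Of 10 markers of fibroblasts, endothelium and blood, 6 were not tested because they were dim, and LUM, DCN, VWF, PECAM1 and PTPRC lay under the 40th percentile of all 12 arrays. The mesenchymal filament gene VIM also lay under that percentile on all 12 arrays, with group means of 3.22 in microsystem treated, 3.20 in microsystem control, 3.17 in Petri treated and 3.27 in Petri control cells, while EPCAM, an epithelial surface protein, averaged 10.42 in microsystem treated, 10.55 in microsystem control, 10.49 in Petri treated and 10.60 in Petri control cells. Of the 4 tested genes of that list, CD14 fell in the microsystem, by 0.66 in treated and 0.43 in control cells. COL1A1, COL1A2 and COL3A1 were not called by culture. As every array comes from 1 clonal line, the CD14 values do not show that blood cells were present, and their source was not tested. In such bulk RNA, fewer cells of a kind and less RNA per cell cannot be told apart.

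**Figure D1:**
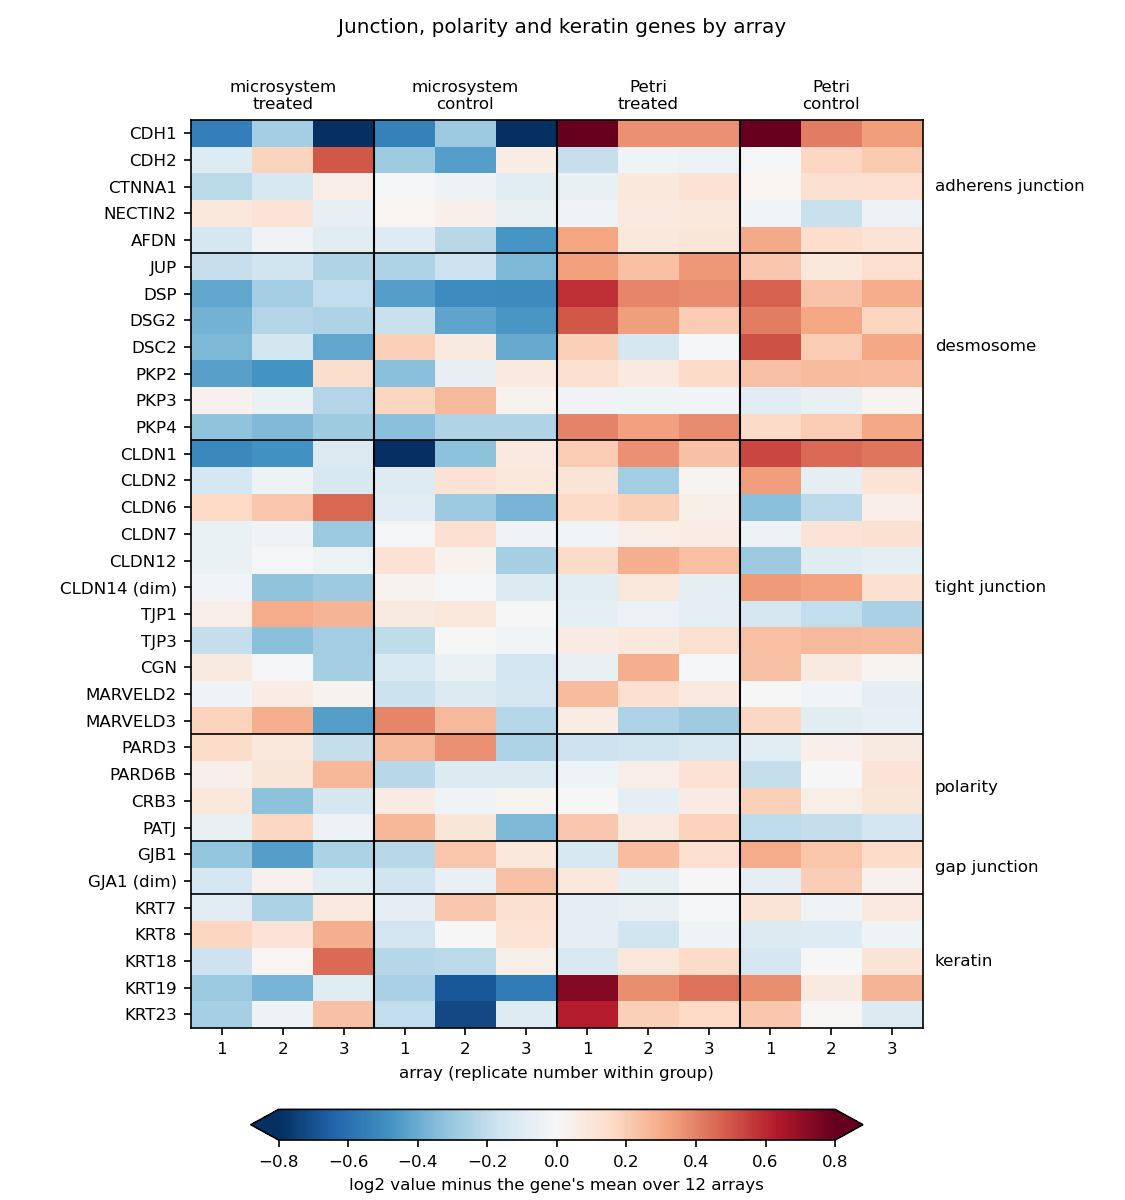
Log2 value of each of 34 genes on each of 12 arrays, minus the gene's own mean over the 12 arrays, with genes in rows by class and arrays in columns by group. Blue stands for values under the gene's mean and red for values above it, colours end at 0.8, and genes marked dim were not tested. CDH1, DSP, DSG2, JUP, PKP4 and KRT19 are blue in all 6 microsystem arrays and red in all 6 Petri arrays.

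Culture format gave more called differences among these genes than acetaminophen did, and most of the called genes were lower in the microsystem. Transcripts of E-cadherin (CDH1), of 4 desmosome genes (DSP, DSG2, JUP, PKP4), of claudin-1 (CLDN1), of the scaffold TJP3 and of keratin 19 (KRT19) fell in the microsystem relative to Petri dishes, in control cells and in treated cells alike, by between 1.25-fold and 2.20-fold. The tight junction scaffold TJP1 alone rose in both. "Rose" and "fell" stand for an adjusted p under 0.05 by limma, with Benjamini-Hochberg adjustment over 13199 genes. Of the 32 genes tested, 1 rose and 10 fell in microsystem control against Petri control cells, and 2 rose and 11 fell in microsystem treated against Petri treated cells.

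These counts have to be read against the whole array. Of all genes tested, 44.9% were called in microsystem control against Petri control cells, and 34.4% of these members were. By direction, 18.3% of all genes fell and 26.5% rose, against 31.2% and 3.12% of the members. In treated cells 41.4% of all genes were called (18.9% fell and 22.6% rose), against 40.6% of the members (34.4% fell and 6.25% rose). The median log2 difference of the members was -0.13 in controls and -0.14 in treated cells, where all genes had medians of 0.01 and -0.00. The groups did not overlap for 16 members in controls and for 16 in treated cells, which is 50% of them, against 52.4% and 52.9% of all genes.

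**Figure D2:**
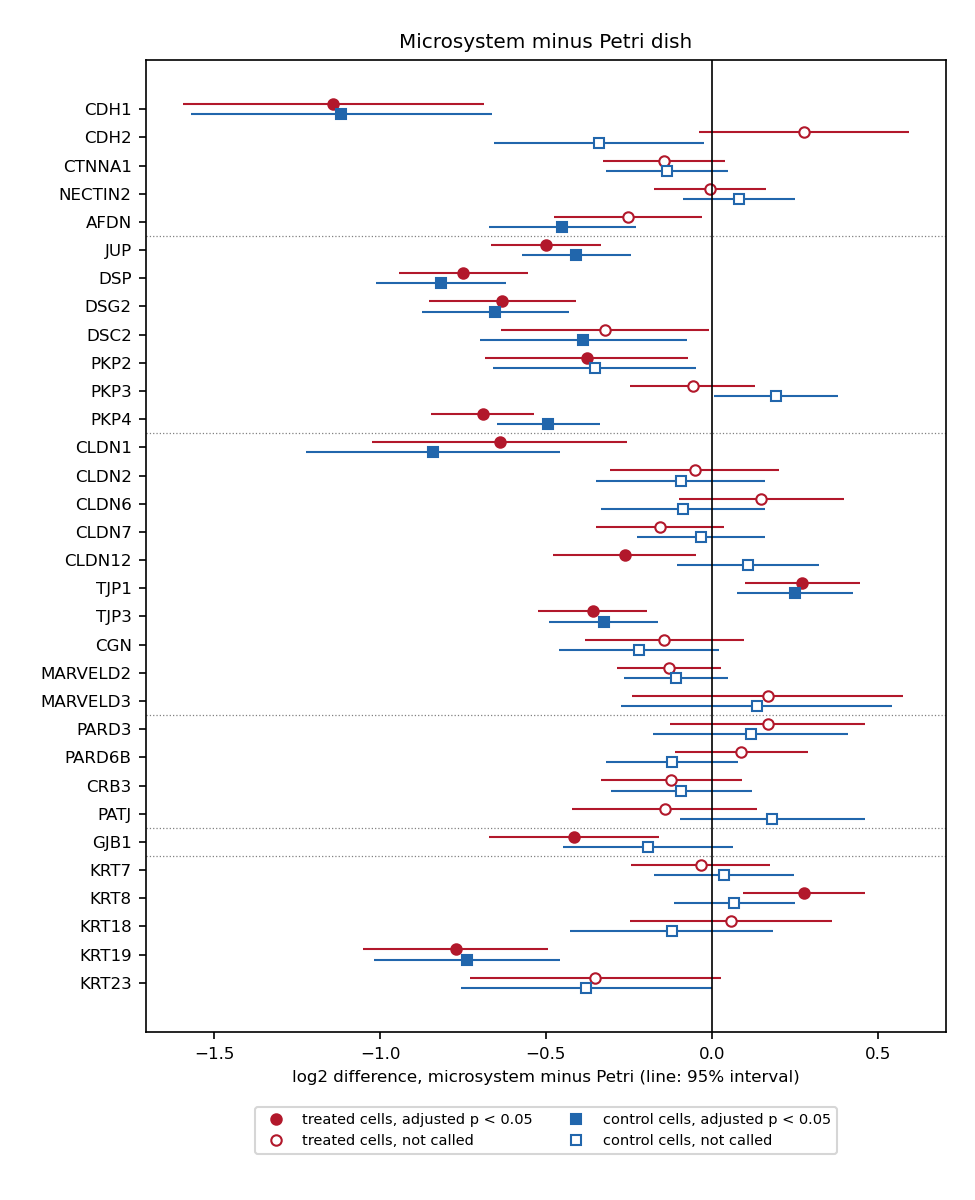
Log2 difference between microsystem and Petri dish for the 32 genes tested, in treated cells (red circles) and control cells (blue squares), with 95% intervals from the fit as lines and filled symbols where the adjusted p was under 0.05. Dotted lines part the classes in the order adherens junction, desmosome, tight junction, polarity, gap junction and keratin. CDH1 lies farthest to the left at -1.14 in treated and -1.12 in control cells.

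CDH1 (probe set 7996837), the epithelial cadherin of the adherens junction, had log2 values of 8.21, 8.48 and 7.86 in microsystem treated cells and 8.21, 8.46 and 7.91 in microsystem control cells. Petri treated cells had 9.74, 9.12 and 9.12, and Petri control cells had 9.68, 9.17 and 9.09. All 6 microsystem arrays were lower than all 6 Petri arrays, and within each culture the treated and control values overlapped and followed the replicate number. CDH1 thus fell in the microsystem by 1.12 ± 0.21 SE in controls (adjusted p = 0.000787), a 2.17-fold lower level, and by 1.14 ± 0.21 in treated cells (adjusted p = 0.000755), a 2.20-fold lower level. Acetaminophen gave differences of -0.01 in the microsystem and 0.01 in Petri dishes, with 95% intervals of -0.46 to 0.45 and -0.44 to 0.47. These intervals come from the fit without the replicate number, so they include the spread between replicate numbers. They do not measure how far same-numbered treated and control arrays differed, and no interval for that is given here.

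CDH2 (probe set 8022674), the neural cadherin that hepatocytes also carry, had 9.41, 9.69 and 10.01 in microsystem treated cells, 9.23, 9.08 and 9.57 in microsystem control cells, 9.33, 9.48 and 9.47 in Petri treated cells and 9.50, 9.68 and 9.72 in Petri control cells. Microsystem treated and control values overlapped, while Petri treated values were all under the Petri control values. CDH2 differed by 0.41 ± 0.15 with treatment in the microsystem (adjusted p = 0.0969) and by -0.21 ± 0.15 in Petri dishes (adjusted p = 0.397), and by -0.34 ± 0.15 between the cultures in controls (adjusted p = 0.0743), so none of these was called. The test of the difference between the treatment effects gave 0.62 ± 0.21 (adjusted p = 0.482). The treatment difference in the microsystem was called without microsystem treated 1 (0.56, adjusted p = 0.0392) or without microsystem control 3 (0.55, adjusted p = 0.0376). That in culture was called in controls without microsystem control 3 or both microsystem arrays numbered 3 (-0.48 in either case) and without microsystem treated 1 or 3 (-0.34), and in treated cells without microsystem treated 1 (0.43, adjusted p = 0.0355).

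AFDN (probe set 8123407), the afadin scaffold that ties nectins to actin, had 9.36, 9.47 and 9.41 in microsystem treated cells, 9.40, 9.28 and 9.03 in microsystem control cells, 9.82, 9.58 and 9.60 in Petri treated cells and 9.80, 9.64 and 9.61 in Petri control cells. The microsystem values lay under the Petri values in both treatments. AFDN fell by 0.45 ± 0.10 in controls (adjusted p = 0.00304), and in treated cells the difference of -0.25 ± 0.10 was not called (adjusted p = 0.0659, but 0.049 without microsystem control 1 and 0.0356 without microsystem control 3). CTNNA1 and NECTIN2 were not called in any comparison. The alpha-catenin gene CTNNA1, which links cadherins to actin, differed between the cultures by -0.14 in treated and -0.14 in control cells, and the nectin gene NECTIN2 by -0.00 and 0.08. Beta-catenin (CTNNB1), which was outside the 37 symbols, differed by 0.01 and 0.08 (adjusted p = 0.955 and 0.441).

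Desmosomes held the most calls by culture of the 6 classes, with 5 of 7 genes that fell and 0 that rose in controls, and the same counts in treated cells, though the fifth gene was not the same. Over all genes 18.3% fell in controls and 18.9% in treated cells, against 71.4% of the 7 genes in each, and the difference between these shares was not tested. The class median was -0.41 in controls and -0.50 in treated cells. The desmoplakin gene DSP (probe set 8116780), whose protein anchors keratin filaments, had 11.02, 11.16 and 11.24 in microsystem treated cells, 10.998, 10.94 and 10.93 in microsystem control cells, 12.02, 11.83 and 11.82 in Petri treated cells and 11.91, 11.67 and 11.74 in Petri control cells. The lowest Petri array was above the highest microsystem array. DSP fell in the microsystem by 0.82 ± 0.09 in controls (adjusted p = 1.23e-05) and by 0.75 ± 0.09 in treated cells (adjusted p = 2.8e-05).

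DSG2 (probe set 8020779), desmoglein-2, a desmosomal cadherin of simple epithelia, had 8.49, 8.63 and 8.62 in microsystem treated cells, 8.69, 8.44 and 8.40 in microsystem control cells, 9.36, 9.20 and 9.07 in Petri treated cells and 9.27, 9.17 and 9.03 in Petri control cells. It fell by 0.65 ± 0.10 in controls and by 0.63 ± 0.10 in treated cells. PKP4 (probe set 8045860), a plakophilin relative found at adherens junctions and desmosomes, had 8.55, 8.51 and 8.58 in microsystem treated cells, 8.54, 8.63 and 8.63 in microsystem control cells, 9.27, 9.20 and 9.25 in Petri treated cells and 9.02, 9.07 and 9.18 in Petri control cells. For both genes the 6 microsystem arrays were under the 6 Petri arrays. PKP4 fell by 0.49 ± 0.07 in controls and by 0.69 ± 0.07 in treated cells, and the difference between these culture effects, -0.20 ± 0.10, was not called (adjusted p = 0.722).

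JUP, plakoglobin, which binds both classical and desmosomal cadherins, averaged 8.502 ± 0.04 in microsystem treated, 8.44 ± 0.10 in microsystem control, 9.002 ± 0.06 in Petri treated and 8.85 ± 0.06 in Petri control cells (SD, n = 3). It fell by 0.41 ± 0.08 in controls and by 0.50 ± 0.08 in treated cells. The other desmosome genes moved less evenly. DSC2, desmocollin-2, fell by 0.39 ± 0.15 in controls (adjusted p = 0.0435) and differed by -0.32 ± 0.15 in treated cells (adjusted p = 0.0926). The DSC2 call in controls was lost without microsystem treated 1, microsystem control 2 or 3, Petri treated 3, or Petri control 1 or 3, with adjusted p up to 0.191, and without microsystem control 3, or without both microsystem arrays numbered 3, the difference was -0.21 (adjusted p = 0.191 and 0.183). In treated cells DSC2 was called without microsystem control 3 (adjusted p = 0.0311).

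PKP2, plakophilin-2, fell in treated cells by 0.38 ± 0.14 (adjusted p = 0.0482) with overlapping groups and differed by -0.35 ± 0.14 in controls (adjusted p = 0.0582). Its value in microsystem treated 3 was 8.37, against 7.80 and 7.76 in the other microsystem treated arrays, and without that array the difference in treated cells was -0.57 (adjusted p = 0.00112). The PKP2 call in treated cells was lost when any of 9 other arrays was left out, namely microsystem treated 1 or 2, microsystem control 2, or any Petri array, with adjusted p up to 0.194, and that in controls was gained without microsystem treated 2 or 3 or microsystem control 3, or with both microsystem arrays numbered 3 left out (-0.44, adjusted p = 0.00195). PKP3, plakophilin-3, went the other way in controls, at 0.19 ± 0.09 (adjusted p = 0.0868, but 0.0384 without microsystem control 3 and 0.0219 without both microsystem arrays numbered 3), and gave -0.06 ± 0.09 in treated cells.

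Because DSP and DSG2 fell together, the 250 bases before the start of each gene are shown, from RefSeq on GRCh38.p14, 5′ to 3′ on the plus strand. Capitals mark the E-box CAGGTG on either strand (CACCTG on the other), letters that zinc finger repressors of the SNAI and ZEB families are known to bind in promoters of epithelial genes. The DSP stretch is chr6:7541421-7541670 and the DSG2 stretch is chr18:31497927-31498176.
DSP: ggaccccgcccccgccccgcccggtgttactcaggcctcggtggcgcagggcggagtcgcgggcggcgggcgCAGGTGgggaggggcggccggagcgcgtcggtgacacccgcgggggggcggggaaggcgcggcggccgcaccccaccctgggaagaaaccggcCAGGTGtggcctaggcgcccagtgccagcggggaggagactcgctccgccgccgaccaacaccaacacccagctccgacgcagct
DSG2: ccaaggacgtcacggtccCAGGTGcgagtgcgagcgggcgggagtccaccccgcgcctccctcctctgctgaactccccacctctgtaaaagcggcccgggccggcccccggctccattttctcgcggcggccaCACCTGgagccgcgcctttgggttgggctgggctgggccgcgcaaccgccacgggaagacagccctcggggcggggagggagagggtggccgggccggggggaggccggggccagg
Each stretch holds 2 matches, which begin 178 and 85 bases before the start of DSP and 232 and 116 bases before that of DSG2. Windows of 300 bases, with 250 before and 50 after a start, were given for 25 of the 37 genes, and 14 of these had at least 1 match in a window. CDH1 and KRT19, which fell in controls and in treated cells, were among the genes without a window. Of the 41 windows of these genes 39% held a match, against 20.6% of all 35116 windows. A match says only that these letters are there. Of the other genes that fell in either comparison of the cultures, AFDN and GJB1 had a match in 1 of 1 window. JUP, DSC2 and TJP3 had a match in 1 of 2 windows. PKP4, CLDN1 and CLDN12, which also fell, had 0 matches in 2 windows, 1 window and 1 window. TJP1 and KRT8, which rose, had a match in 1 of 4 and 0 of 1 windows. CLDN6, CLDN7, CRB3 and PATJ, not called by culture, each had 1 window with a match. The shares were not adjusted for base content or for genes with several windows. Whether repressors that bind these letters had a part in the culture differences was not tested. Of the genes of those repressors, ZEB1 fell in the microsystem by 0.88 ± 0.09 in controls (adjusted p = 9.38e-06) and by 0.67 ± 0.09 in treated cells, and SNAI1 rose by 0.35 ± 0.13 in controls (adjusted p = 0.0463), a call that was lost without microsystem treated 1, microsystem control 1 or 2, Petri treated 1 or 3, or any Petri control array, while SNAI2 and ZEB2 were dim. Without microsystem control 2 the SNAI1 difference was 0.23 (adjusted p = 0.205).

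**Figure D3:**
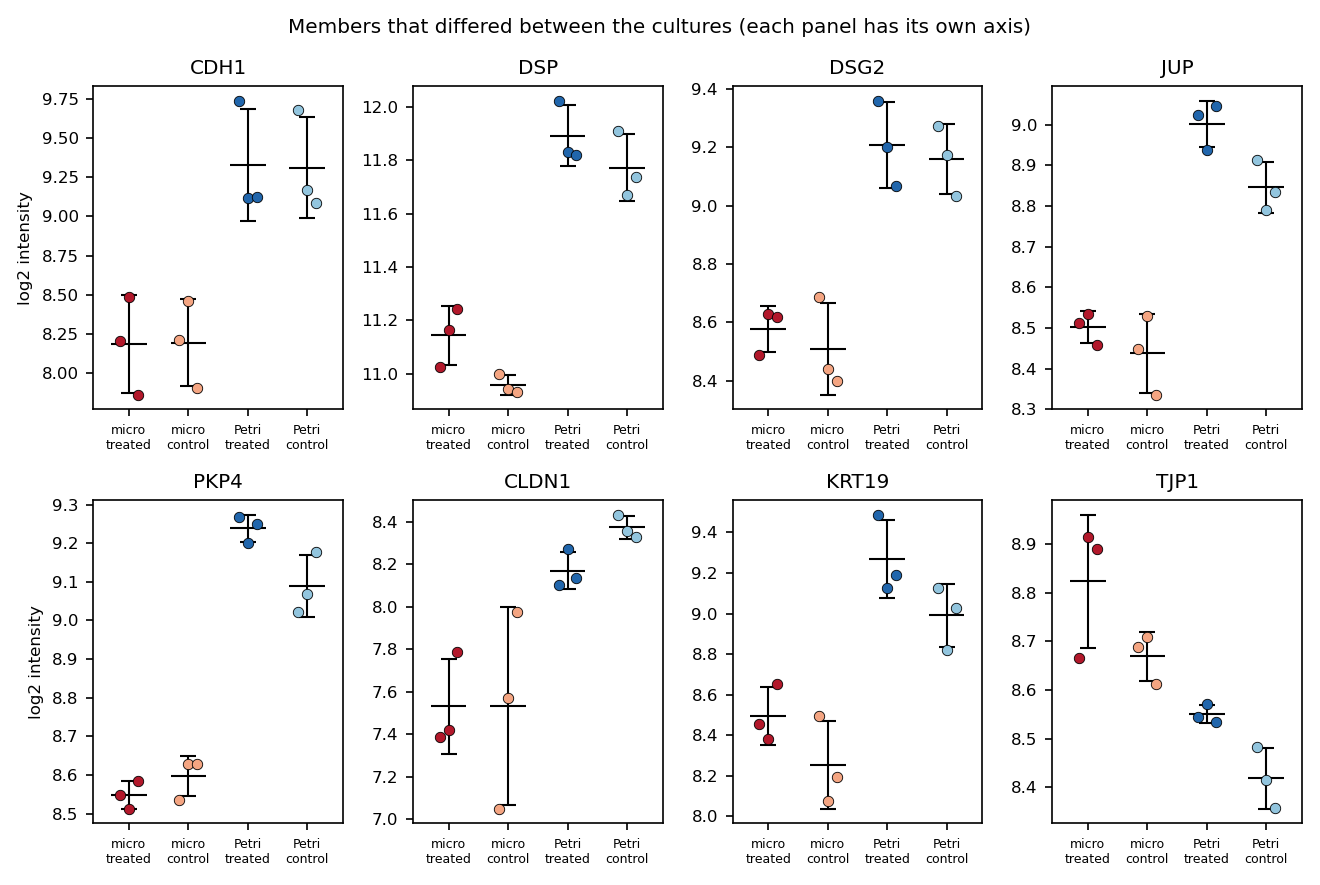
Log2 intensity of 8 genes by group, with each point an array, bars at the mean and whiskers of 1 SD (n = 3). In each panel other than that of TJP1 the microsystem arrays lie under the Petri arrays. In that of TJP1 they lie above them.

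Of 10 tight junction genes tested, 1 rose and 2 fell in controls, and 1 rose and 3 fell in treated cells. That is 30% and 40% called, against 44.9% and 41.4% of all genes. CLDN1 (probe set 8092726), claudin-1, a sealing claudin, had 7.39, 7.42 and 7.79 in microsystem treated cells, 7.05, 7.57 and 7.98 in microsystem control cells, 8.10, 8.27 and 8.14 in Petri treated cells and 8.43, 8.36 and 8.33 in Petri control cells. Every microsystem array was lower than every Petri array, and the microsystem arrays were spread more widely, with both arrays numbered 3 the highest of their groups. CLDN1 fell by 0.84 ± 0.18 in controls (adjusted p = 0.00176) and by 0.64 ± 0.18 in treated cells (adjusted p = 0.0108).

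The ZO family scaffolds TJP1 and TJP3, which bind claudins on the cell's inner side, moved in opposite directions. TJP3 (probe set 8024687) had 6.83, 6.68 and 6.74 in microsystem treated cells, 6.81, 7.02 and 6.997 in microsystem control cells, 7.08, 7.10 and 7.14 in Petri treated cells and 7.26, 7.27 and 7.27 in Petri control cells, and fell by 0.33 ± 0.08 in controls and by 0.36 ± 0.08 in treated cells. TJP1 (probe set 7986977) had 8.67, 8.91 and 8.89 in microsystem treated cells, 8.69, 8.71 and 8.61 in microsystem control cells, 8.54, 8.57 and 8.53 in Petri treated cells and 8.48, 8.42 and 8.36 in Petri control cells. The cultures did not overlap for either gene in either treatment. TJP1 rose by 0.25 ± 0.08 in controls (adjusted p = 0.0225) and by 0.27 ± 0.08 in treated cells (adjusted p = 0.0152). The TJP1 calls were lost in controls without microsystem control 1 or 2 or Petri control 2 or 3 (adjusted p up to 0.0791). In treated cells they were lost without microsystem treated 2 or 3 (adjusted p = 0.0686 and 0.0548) or both microsystem arrays numbered 3 (adjusted p = 0.0523).

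CLDN12 (probe set 8134091), a claudin with roles in calcium passage, had 9.53, 9.57 and 9.54 in microsystem treated cells, 9.69, 9.61 and 9.31 in microsystem control cells, 9.74, 9.87 and 9.82 in Petri treated cells and 9.29, 9.49 and 9.51 in Petri control cells. The Petri treated arrays were above those of every other group. CLDN12 fell in microsystem treated against Petri treated cells by 0.26 ± 0.10 (adjusted p = 0.0491), a call that was lost when any of 9 arrays was left out alone (adjusted p up to 0.141), namely each microsystem treated, each Petri treated, microsystem control 2, and Petri control 2 or 3. In controls it differed by 0.11 ± 0.10 (adjusted p = 0.398).

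The remaining tight junction genes were not called by culture. CLDN6, a claudin of embryonic and tumour epithelia, differed by 0.15 in treated and -0.09 in control cells, and the tricellular junction gene MARVELD2 by -0.13 and -0.11. The microsystem arrays of MARVELD2 lay under the Petri arrays in both treatments. MARVELD3, a relative of occludin, differed by 0.17 and 0.14 and was called without both microsystem arrays numbered 3, at 0.39 (adjusted p = 0.0193) and 0.32 (adjusted p = 0.0442). Its values on those arrays were 7.13 (treated) and 7.34 (control), against 7.76 to 7.97 on the other microsystem arrays. CLDN2, CLDN7 and CGN were tested but had low values, with group means between 4.73 and 5.33, and differed by between -0.22 and -0.03. CLDN14, under the filter, had group means of 4.38, 4.56, 4.56 and 4.85 in microsystem treated, microsystem control, Petri treated and Petri control cells, and is not shown to be above background.

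PARD3 and PARD6B belong to the PAR complex and CRB3 and PATJ to the Crumbs complex, which together set apart the apical membrane. Of these 4 genes 0 were called by culture, against 44.9% of all genes in controls and 41.4% in treated cells. Unadjusted, 0 of the 4 were under 0.05 in controls or in treated cells, against 51.9% and 49.4% of all genes. Culture differences in treated and control cells were 0.17 and 0.12 for PARD3, 0.09 and -0.12 for PARD6B, -0.12 and -0.09 for CRB3 and -0.14 and 0.18 for PATJ. The microsystem arrays numbered 3 bear on 2 of these values. Without both, PARD3 rose by 0.27 in treated cells (adjusted p = 0.022) and by 0.30 in controls (adjusted p = 0.0117), and PATJ by 0.36 in controls (adjusted p = 0.00891), and leaving out microsystem control 3 alone gave the same calls in controls.

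GJB1 (probe set 8168274), connexin 32, the main connexin of hepatocytes, had 7.80, 7.67 and 7.85 in microsystem treated cells, 7.88, 8.33 and 8.19 in microsystem control cells, 7.98, 8.35 and 8.23 in Petri treated cells and 8.40, 8.33 and 8.26 in Petri control cells. The microsystem treated arrays were the lowest of all 12. GJB1 fell in microsystem treated against Petri treated cells by 0.42 ± 0.12 (adjusted p = 0.0129), which was not called without microsystem treated 2 (0.36 lower, adjusted p = 0.0545) or Petri treated 2 (0.33 lower, adjusted p = 0.064). In controls it differed by -0.19 ± 0.12 (adjusted p = 0.209). GJA1 (probe set 8121749), connexin 43, had 4.29, 4.46 and 4.34 in microsystem treated cells, 4.27, 4.37 and 4.66 in microsystem control cells, 4.51, 4.36 and 4.43 in Petri treated cells and 4.35, 4.63 and 4.46 in Petri control cells. No GJA1 value among the 12 reached its own array's 40th percentile, so it is not shown to be above background and was not tested.

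KRT19 (probe set 8015349), a keratin that in adult liver marks bile duct cells, had 8.45, 8.38 and 8.65 in microsystem treated cells, 8.496, 8.08 and 8.19 in microsystem control cells, 9.49, 9.13 and 9.19 in Petri treated cells and 9.13, 8.82 and 9.03 in Petri control cells. The 6 microsystem arrays were under the 6 Petri arrays. KRT19 fell by 0.74 ± 0.13 in controls (adjusted p = 0.000461), a 1.67-fold lower level, and by 0.77 ± 0.13 in treated cells (adjusted p = 0.000377). The hepatocyte pair did not share this pattern.

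KRT8 (probe set 7963567) had 12.34, 12.27 and 12.46 in microsystem treated cells, 12.02, 12.17 and 12.28 in microsystem control cells, 12.10, 12.01 and 12.14 in Petri treated cells and 12.06, 12.07 and 12.13 in Petri control cells. KRT18 (probe set 8154725) had 11.82, 12.01 and 12.44 in microsystem treated cells, 11.76, 11.78 and 12.04 in microsystem control cells, 11.87, 12.08 and 12.15 in Petri treated cells and 11.86, 11.99 and 12.10 in Petri control cells. KRT8 was highest in microsystem treated cells, which overlapped with microsystem control but not with Petri treated cells, while the groups of KRT18 overlapped throughout. KRT8 rose in microsystem treated against Petri treated cells by 0.28 ± 0.08 (adjusted p = 0.018), a call that was lost without microsystem treated 3 (0.23, adjusted p = 0.0726), Petri treated 2 (0.24, adjusted p = 0.072) or both microsystem arrays numbered 3 (0.23, adjusted p = 0.0514). KRT18 differed by 0.06 in treated and -0.12 in control cells, and its other probe set (7955637) by 0.07 and -0.12. Both genes have many processed pseudogenes in the human genome, so their values are uncertain.

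KRT23, a keratin of simple epithelia, differed by -0.35 ± 0.18 in treated and -0.38 ± 0.18 in control cells (adjusted p = 0.128 and 0.0966), which became calls without both microsystem arrays numbered 3 (-0.48 and -0.50, adjusted p = 0.0443 and 0.0351) and, in controls, without microsystem control 3 alone. KRT7, another ductal keratin, had low values, at group means between 5.13 and 5.30, and differed by -0.03 in treated and 0.04 in control cells.

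Acetaminophen had few effects on these genes that passed the test. In the microsystem 1 of 32 rose and 0 fell, which is 3.12% called, where 9.06% of all genes were (6.39% higher and 2.67% lower). In Petri dishes 1 of 32 rose and 0 fell, or 3.12%, where 10.4% of all genes were called (8.38% higher and 1.98% lower). The genes were both claudins, CLDN6 in the microsystem and CLDN12 in Petri dishes. Before adjustment, p was under 0.05 in limma for 8 of 32 members in the microsystem and 5 of 32 in Petri dishes. Of all genes, 25.8% and 26.3% were under 0.05 before adjustment. The member medians were 0.01 and 0.00, with all-gene medians of -0.01 and 0.01, and the treated and control groups did not overlap for 18.8% of the members in the microsystem and 37.5% in Petri dishes, against 27.6% and 34.5% of all genes.

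CLDN6 (probe set 7998898) had 9.18, 9.24 and 9.48 in microsystem treated cells and 8.93, 8.73 and 8.65 in microsystem control cells. In Petri treated cells it had 9.17, 9.21 and 9.07, and in Petri control cells 8.69, 8.81 and 9.07. The groups parted in the microsystem and overlapped in Petri dishes. CLDN6 rose 1.45-fold in the microsystem, by 0.53 ± 0.11 (adjusted p = 0.0135), and differed by 0.29 ± 0.11 in Petri dishes (adjusted p = 0.123). The call was lost without microsystem control 2 (0.51, adjusted p = 0.0513) and also when both microsystem arrays numbered 3 were left out (0.38, adjusted p = 0.11).

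CLDN12, whose values are given above, rose 1.30-fold in Petri dishes, by 0.38 ± 0.10 (adjusted p = 0.0281), and differed by 0.01 ± 0.10 in the microsystem (adjusted p = 0.966). The call was lost without Petri treated 2 or 3 or Petri control 1 or 2 (adjusted p from 0.0607 to 0.109). Neither claudin showed a called difference between the treatment effects, at 0.24 ± 0.16 for CLDN6 (adjusted p = 0.804) and -0.37 ± 0.14 for CLDN12 (adjusted p = 0.584). In that test of the difference 0 of 32 members passed in limma, where 0.0303% of all genes did (0.00758% rose and 0.0227% fell). Unadjusted, 2 of 32 members were under 0.05, against 7.35% of all genes, and these were CDH2 and CLDN12.

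Same-numbered Petri arrays deviated together, so the treatment effect in Petri dishes was also fitted with the replicate number as a block within each culture. With that replicate block 2 members were called in place of 1, CLDN12 and DSC2. With the block DSC2 fell by 0.32 (adjusted p = 0.0452, against 0.175 without it). DSC2 had 9.01, 8.69 and 8.81 in Petri treated cells and 9.33, 9.03 and 9.13 in Petri control cells, so each treated array lay below its same-numbered control array.

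**Figure D4:**
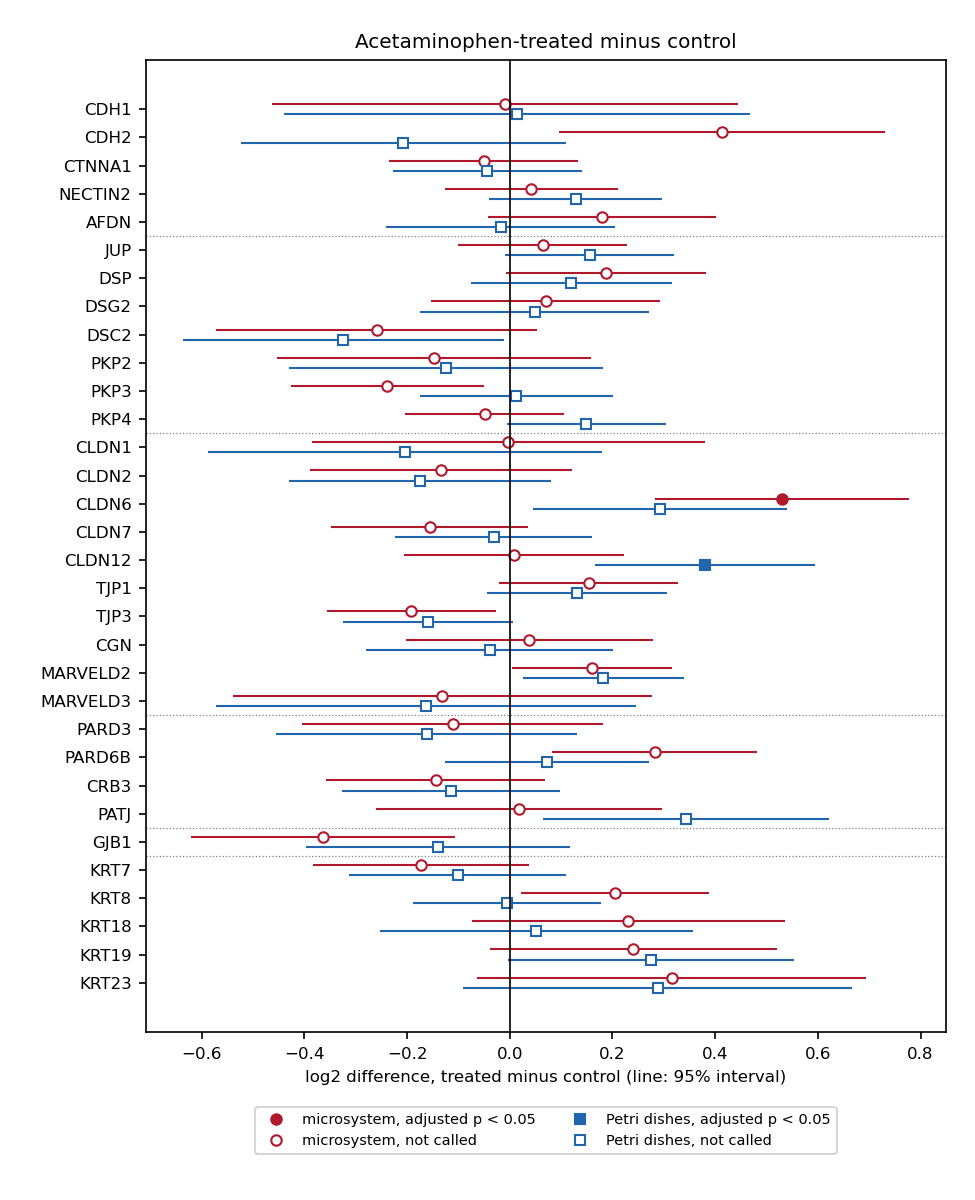
Log2 difference between acetaminophen-treated and control cells for the 32 genes tested, in the microsystem (red circles) and in Petri dishes (blue squares), with 95% intervals from the fit as lines and filled symbols where the adjusted p was under 0.05. CLDN6 is the filled circle at 0.53 and CLDN12 the filled square at 0.38.

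Without the block, the other treatment differences were not called, and they lay between -0.36 and 0.41 in the microsystem and between -0.32 and 0.34 in Petri dishes. GJB1 gave -0.36 ± 0.12 in the microsystem (adjusted p = 0.0738), with no overlap, and was called without microsystem control 1 (-0.49, adjusted p = 0.0175). PARD6B, the adaptor of the PAR complex, gave 0.28 ± 0.09 there (adjusted p = 0.0733), also with no overlap, and was called after quantile normalization (adjusted p = 0.0487). PATJ, a scaffold of the Crumbs complex, gave 0.34 ± 0.13 in Petri dishes (adjusted p = 0.109), again with no overlap. It was called when only the Petri arrays were fitted (0.34, adjusted p = 0.018) and with array weights (0.33, adjusted p = 0.0167). It was also called without microsystem control 3 or both microsystem arrays numbered 3 (adjusted p = 0.0222 and 0.0216). Those arrays are not in this comparison, so the difference stayed at 0.34 and only the shared estimate of spread changed. Among the genes that fell by culture, the intervals of the treatment effect differed in width. DSP differed with treatment by 0.19 in the microsystem (95% interval -0.01 to 0.38) and by 0.12 in Petri dishes (-0.08 to 0.32), and JUP by 0.06 (-0.10 to 0.23) and 0.16 (-0.01 to 0.32). KRT19 differed by 0.24 (-0.04 to 0.52) and 0.28 (-0.00 to 0.55). CLDN1 differed by -0.00 (-0.39 to 0.38) and -0.20 (-0.59 to 0.18). Its intervals, like those of CDH1 given above, were among the wider ones in this fit, which leaves out the replicate number.

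**Figure D5:**
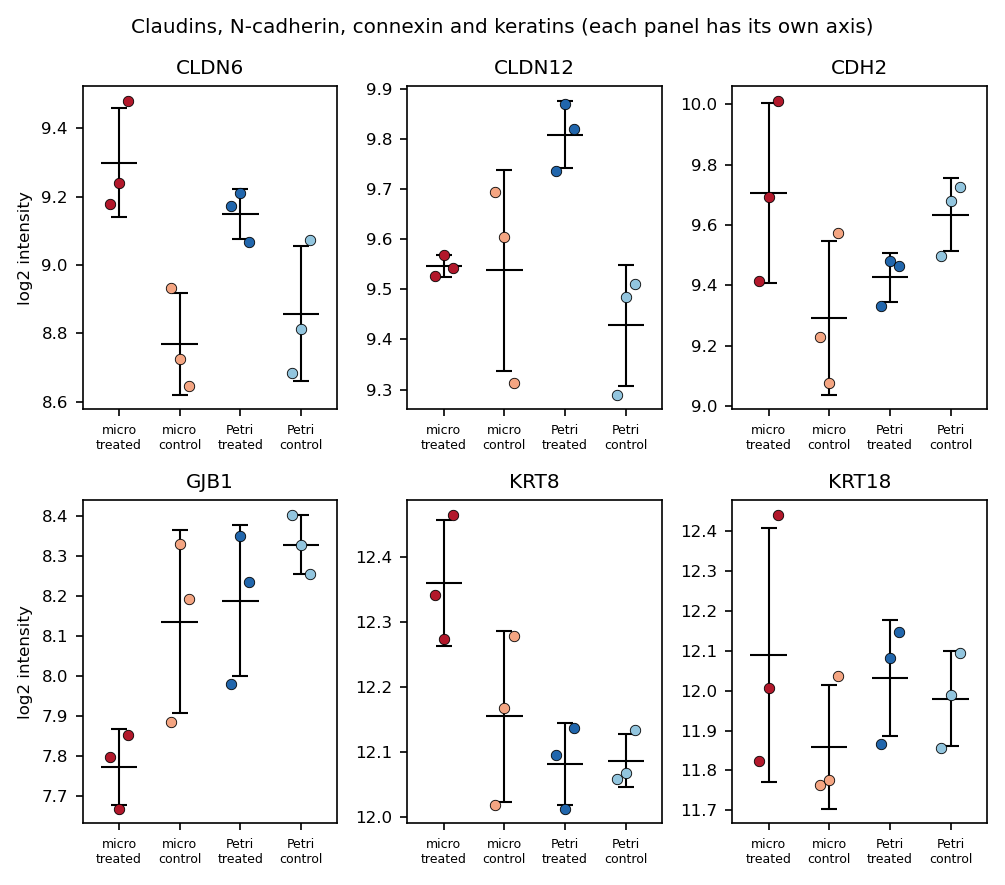
Log2 intensity of CLDN6, CLDN12, CDH2, GJB1, KRT8 and KRT18 by group, with each point an array, bars at the mean and whiskers of 1 SD (n = 3). Treated arrays of CLDN6 in the microsystem and of CLDN12 in Petri dishes lie above their control arrays, and microsystem treated arrays of GJB1 lie under those of the other groups.

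A further 60 junction, polarity and keratin genes were examined beside these, of which 33 passed the filter. By culture, 6 rose and 9 fell in controls and 4 rose and 7 fell in treated cells, with medians of -0.01 and -0.03. That is 45.5% and 33.3% called, against 44.9% and 41.4% of all genes, so the called share was near or under that of the whole array. By direction, 18.2% rose and 27.3% fell in controls, against 26.5% and 18.3% of all genes. In treated cells 12.1% rose and 21.2% fell, against 22.6% and 18.9% of all genes. CLDN4, a claudin of tight epithelia, rose by 1.08 ± 0.09 in controls and by 0.86 ± 0.09 in treated cells, at group means of 7.76 in microsystem treated, 7.60 in microsystem control, 6.91 in Petri treated and 6.51 in Petri control cells. CXADR, a virus receptor and tight junction adhesion protein, fell by 0.99 ± 0.10 and 0.90 ± 0.10, and CGNL1, a relative of cingulin, by 0.77 ± 0.11 and 0.55 ± 0.11. The basolateral polarity gene DLG1 rose by 0.68 ± 0.09 and 0.89 ± 0.09. The claudin gene CLDN11 rose by 0.40 ± 0.11 in controls and by 0.33 in treated cells (adjusted p = 0.0247). The CLDN11 call in treated cells was lost without microsystem treated 1 or Petri treated 1 (adjusted p = 0.104 and 0.0962). PRKCI, the atypical protein kinase C of the PAR complex, fell by 0.42 ± 0.08 in treated cells, and EPCAM differed by -0.07 in treated and -0.05 in control cells.

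With acetaminophen, 3 of those 33 rose and 1 fell in the microsystem, and 5 rose and 1 fell in Petri dishes. That is 12.1% and 18.2% called, against 9.06% and 10.4% of all genes, and the difference between these shares was not tested. With the replicate block within each culture CGNL1 fell as well in Petri dishes (-0.24, adjusted p = 0.0453, against 0.195 without it). NECTIN4, a nectin of the adherens junction, rose in both, by 0.67 ± 0.10 in the microsystem (adjusted p = 0.00196) and by 1.05 ± 0.10 in Petri dishes (adjusted p = 5.66e-05). Its values were 6.17, 6.02 and 6.37 in microsystem treated, against 5.54, 5.499 and 5.51 in microsystem control cells, and 6.77, 6.74 and 6.93 in Petri treated, against 5.67, 5.69 and 5.94 in Petri control cells. No treated array overlapped with a control array of its culture. NECTIN4 was lower in microsystem treated than in Petri treated cells by 0.63 ± 0.10 (adjusted p = 0.000275).

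PARD6G, a further PAR complex adaptor, rose with acetaminophen in Petri dishes by 0.75 ± 0.11 (adjusted p = 0.000988) and differed by -0.06 ± 0.11 in the microsystem. It had 6.86, 6.78 and 6.68 in microsystem treated, 6.87, 7.04 and 6.59 in microsystem control, 6.69, 6.72 and 6.70 in Petri treated and 6.12, 5.90 and 5.83 in Petri control cells, so the Petri control arrays alone were low. PARD6G was higher in microsystem control than in Petri control cells by 0.88 ± 0.11. The difference of its treatment effects, -0.81 ± 0.16, was not called (adjusted p = 0.0935). It was called with the replicate block (adjusted p = 0.0498) or the block within each culture (adjusted p = 0.0416), and without microsystem control 3 (-0.93, adjusted p = 0.042) or both microsystem arrays numbered 3 (-0.89, adjusted p = 0.0475). Vinculin (VCL), which binds alpha-catenin, rose by 0.49 ± 0.09 in the microsystem and by 0.30 ± 0.09 in Petri dishes (adjusted p = 0.00602 and 0.0466). The other genes called with acetaminophen were PERP, a desmosome protein and p53 target (0.44), and CLDN9 (-0.38) in the microsystem, and CLDN4 (0.39), SCRIB (0.30) and KRT5 (-0.39) in Petri dishes. Without both microsystem arrays numbered 3, PERP (0.34, adjusted p = 0.0982) and CLDN9 (-0.42, adjusted p = 0.0771) were not called. When 1 array was left out, VCL in Petri dishes, PERP, CLDN9, SCRIB and CLDN4 each lost the call without some array, at adjusted p up to 0.183, 0.0724, 0.0966, 0.131 and 0.0538.

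Of 18 genes of epithelial and mesenchymal transcription, 10 were tested, and 0 of them passed with acetaminophen in limma in either culture. Of all genes 9.06% passed in the microsystem and 10.4% in Petri dishes. Unadjusted, 1 of the 10 in the microsystem and 2 in Petri dishes were under 0.05, against 25.8% and 26.3% of all genes. With the replicate block within each culture, SNAI1 (0.33, adjusted p = 0.0245, against 0.132 without it) and GRHL1 (0.37, adjusted p = 0.0247, against 0.18) rose in Petri dishes, as they did without both microsystem arrays numbered 3 (adjusted p = 0.0497 and 0.0492). In the microsystem TWIST1 fell with that block (-0.35, adjusted p = 0.0271, against 0.0503 without it). It was also called there without microsystem control 2 (-0.42, adjusted p = 0.047) or Petri treated 3 (-0.35, adjusted p = 0.0334). By culture 3 rose and 4 fell in controls and 2 rose and 3 fell in treated cells, which is 70% and 50% of 10 genes, against 44.9% and 41.4% of all genes called. Beside ZEB1 and SNAI1, the epithelial factor ELF3 fell by 1.12 ± 0.16 in controls and by 0.87 ± 0.16 in treated cells, FOXA2 of the endoderm lineage by 0.89 ± 0.12 and 0.93 ± 0.12, and its relative FOXA1 by 0.38 ± 0.10 in controls. GRHL1, a grainyhead factor of epithelia, rose by 0.91 ± 0.17 and 0.68 ± 0.17, and the epithelial splicing regulator ESRP2 by 0.44 ± 0.13 and 0.39 ± 0.13. The ESRP2 calls were lost in controls without microsystem control 2 or Petri control 3 and in treated cells without microsystem treated 1 or 2 or Petri treated 2 or 3, at adjusted p up to 0.101. HNF4A had no probe set with exactly 1 symbol, so no value is given.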

How the data were processed

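RNA of 12 HepG2C3A samples, 3 per group, was measured on Affymetrix arrays. The deposited values are log2 intensities of 32321 probe sets, which the authors made by RMA. The submitters' processing notes name Affymetrix Expression Console. RMA makes the arrays' distributions alike, so differences are relative to the bulk of genes. The sources used here give no version of it and no genome build, and positions are printed for promoters only. All p-values are those computed here from the deposited log2 values. Gene symbols came from the array annotation, updated through gene IDs to RefSeq. It gave 19158 probe sets 1 symbol, 1388 several and 11775 none here.

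Genes entered the tests if 3 or more arrays were above their own 40th percentile. With limma 3.58.1 in R 4.3.3 (and version 1.17.8 of data.table), group means over all 12 arrays were fitted together, with empirical Bayes moderation (8 residual and 5.35 prior degrees of freedom), two-sided, with Benjamini-Hochberg adjustment over 13199 genes. SE values and intervals are those of that fit. Figures used Python 3.11.15 and matplotlib 3.10.9. Simulated data with known changes were used to test the procedure. Their noise was drawn independently for each array, so they do not cover same-numbered arrays that deviate together. With 3 arrays a group, an exact permutation test of 1 value could not go below p = 0.1, and precision is limited by how many arrays there are.

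The members and lists were chosen with earlier results of these data known. Values on every array are given, per class and comparison, for up to 3 genes past the threshold with the largest difference, and for CDH1, CDH2, GJA1, GJB1, KRT8 and KRT18. NECTIN4, PARD6G and a few others given by array were picked after their values were seen. Of the further lists, up to 6 called genes per comparison are named. Alternatives were replicate blocks, only the arrays compared, quantile normalization, equal array medians, no filter or a 60th percentile filter, the mean of probe sets, an intensity trend, array weights, and leaving arrays out. Deviations from the group mean of same-numbered arrays correlated across genes with r = 0.477, 0.189 and 0.307 for treatment in Petri dishes, all above 0.1, so the numbers were taken to pair these arrays. They were not so taken elsewhere, where at least 1 r was lower (0.107, 0.0708 and 0.604 for treatment in the microsystem).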

Additional observations from a re-analysis of the deposited data

How the results depend on the processing

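Of the calls by culture, 9 of 11 in controls (AFDN, CDH1, CLDN1, DSG2, DSP, JUP, KRT19, PKP4, TJP3) and 8 of 13 in treated cells (the same without AFDN) held in all 22 alternatives run, and no called difference changed sign in any. Neither call with acetaminophen held in all 23. Of 2938 repeats of differences called neither before nor after, 143 changed sign. Leaving out 1 array, the called members numbered 0 to 2 for treatment in Petri dishes, 0 to 2 for treatment in the microsystem, 9 to 16 for culture in controls, 9 to 15 for culture in treated cells and 0 to 0 for the difference of treatment effects. For treatment in Petri dishes the count of 1 became 2 with the replicate block within each culture, 2 with only the arrays compared, 7 with array weights and 2 without both microsystem arrays numbered 3. For treatment in the microsystem the count of 1 became 3 with the replicate block over all arrays, 4 with the block within each culture, 3 after quantile normalization (2 rose and 1 fell), 2 with array weights and 0 without both microsystem arrays numbered 3. For culture in controls 11 became 17 without those arrays, where 5 rose and 12 fell. The replicate block changed no other count of members by over 1.5 times, and under it CDH2 and PARD6B were called in the microsystem (adjusted p = 0.0302 and 0.0279), CDH2 and PKP2 in controls between the cultures (adjusted p = 0.0215 and 0.0289) and AFDN in treated cells (adjusted p = 0.0384), where CLDN12 was not (adjusted p = 0.0513). With the block within each culture PKP3 was also called in the microsystem (adjusted p = 0.0499). Over all 13199 genes, the 1367 calls for treatment in Petri dishes ranged from 697 to 3602 over the alternatives, the 1196 in the microsystem from 446 to 2109, and the 4 for the difference of treatment effects from 1 to 54. The causes of these changes were not tested.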
